A study of Rattus norvegicus with 18 samples.

Results

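The genes described here are 10 that mark or control the passage between an epithelial and a mesenchymal cell state: the cadherins Cdh1 and Cdh2, the adhesion molecule Epcam, the intermediate filament gene Vim, the repressors Zeb1, Zeb2, Snai1 and Snai2, and the epithelial regulators Esrp1 and Grhl2. They were taken by symbol, and all 10 were found among the 28695 genes in the files. The RNA came from rat pXEN cells (rat XENP in the labels), precursors of extraembryonic endoderm derived from blastocysts of the WKY strain and labelled female. There were 6 groups of 3 libraries, between passages 32 and 51.

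Serum-free vesicles were grown with CHIR99021, an inhibitor of the kinase GSK3 that stabilises beta-catenin, and are taken here to be the vesicles for which the growth protocol gives 3 µM of the inhibitor and murine LIF at 10 ng/ml in N2B27. Serum vesicles were grown with CHIR99021 and serum, at a dose that the labels leave unclear. Sorted vacuolated cells had 0.5 µM CHIR99021 and then a sort whose basis is not stated. CHIR-vacuolated cells had the same 0.5 µM without a sort. BCS-vacuolated cells had 14% BCS, a supplement the labels do not spell out. Normal cells had the routine medium alone. The labels number the libraries of each group from 1 to 3. Passage differed within every group, for example 37, 40 and 51 in normal cells and 32, 35 and 49 in serum vesicles. The libraries of a group were thus not repeats from a single passage. The labels do not tell if the cells at these passages were derived independently. The p-values below therefore measure spread between libraries of different passage, and need not cover spread between derivations.

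Epithelial cells hold to their neighbours through E-cadherin, the product of Cdh1, whose tail is anchored to actin by catenins. In an epithelial to mesenchymal transition, repressors of the Snail and Zeb families bind E-box sequences and silence Cdh1 and other epithelial genes, while N-cadherin (Cdh2) and vimentin (Vim) often rise. Grhl2 and Esrp1 work on the epithelial side, the first as a transcription factor of junction genes and the second as a splicing regulator. In rodent embryos the primitive endoderm gives rise to visceral endoderm, an epithelium, and to parietal endoderm, whose migrating cells are known for vimentin.

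RefSeq promoter sequences (build GRCr8, not the build of the count files) were at hand for 5 of the 10 genes. The stretches below are the 250 bases before the start of 4 of these genes, shown because Epcam and Vim were the epithelial and the mesenchymal member with the most counts of those 5 and Zeb1 and Snai1 encode repressors that bind E-boxes. Zeb2 also encodes such a repressor, and its promoter was at hand but is not shown. Capitals mark the E-box CACCTG, or CAGGTG where it lies on the other strand, and in Vim the letters TATAAA.
Epcam: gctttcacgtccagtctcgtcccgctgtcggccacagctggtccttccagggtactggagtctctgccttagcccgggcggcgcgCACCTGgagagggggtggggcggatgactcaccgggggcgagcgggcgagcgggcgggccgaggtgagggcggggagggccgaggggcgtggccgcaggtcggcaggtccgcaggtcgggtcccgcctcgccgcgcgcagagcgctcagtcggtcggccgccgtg
Vim: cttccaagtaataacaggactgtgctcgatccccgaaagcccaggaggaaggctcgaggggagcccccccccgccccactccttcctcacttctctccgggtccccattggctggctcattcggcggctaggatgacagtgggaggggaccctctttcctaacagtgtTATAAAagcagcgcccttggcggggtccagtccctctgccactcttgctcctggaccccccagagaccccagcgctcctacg
Zeb1: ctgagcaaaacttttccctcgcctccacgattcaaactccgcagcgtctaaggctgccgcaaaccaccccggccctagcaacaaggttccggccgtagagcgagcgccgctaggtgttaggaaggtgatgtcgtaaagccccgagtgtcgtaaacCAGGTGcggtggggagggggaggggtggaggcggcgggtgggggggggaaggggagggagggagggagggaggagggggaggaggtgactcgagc
Snai1: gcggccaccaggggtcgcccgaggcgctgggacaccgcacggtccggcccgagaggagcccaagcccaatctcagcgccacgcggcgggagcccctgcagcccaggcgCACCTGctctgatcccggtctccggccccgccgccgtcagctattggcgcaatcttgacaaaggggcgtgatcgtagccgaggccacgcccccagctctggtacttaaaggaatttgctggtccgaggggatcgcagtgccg

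The Epcam sequence (chr6:12649679-12649928, minus strand) holds CACCTG 165 bases before the start. The Zeb1 sequence (chr17:56810654-56810903, minus strand) holds CAGGTG 95 bases before it, and the Snai1 sequence (chr3:176667226-176667475, plus strand) holds CACCTG 142 bases before it. The Vim sequence (chr17:81577011-81577260, plus strand) has no such E-box and holds TATAAA on its own strand 82 bases before the start. Searched on both strands, the E-box was in 15.9% of 33469 RefSeq promoters of the same length, and TATAAA on the gene's strand was in 8.06%. The Grainyhead-like motif AACCGGTT, which reads the same on both strands, was in none of the 5 and in 0.146% of all. The Zeb2 promoter, of the same length and not shown, held no such E-box on either strand and no TATAAA on the gene's strand. An E-box was thus not found in every repressor gene searched. The motifs did not overlap one another, and a match or its lack describes letters in this window, not binding.

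The libraries ranged from 4.05 M to 12.1 M counts on the strand used, and 2 genes took 37.6 to 61.1% of them. That share was 53.6 to 61.1% in serum-free vesicles, 51.0 to 60.8% in serum vesicles and 37.6 to 43.6% in normal cells. Levels are given as CPM, counts scaled to a common library size by TMM, which compare a gene between libraries but not genes of different length with each other. Libraries of a group correlated across genes at 0.937 to 0.986 (log2 CPM, where genes are not independent replicates), and the second BCS-vacuolated library correlated with the other two of its group at 0.967 and 0.970, against 0.983 between those. Of the 10 genes, 7 passed the filter on low counts among 11503 genes tested, and Cdh2, Zeb2 and Snai2 did not. Zeb1 lay over the filter's level in 7 of 18 libraries, among them all 3 sorted ones and none of the serum-free vesicles. Each comparison used edgeR's quasi-likelihood test with p adjusted over all genes tested. In bulk RNA, fewer cells of a kind and less RNA per cell cannot be told apart.

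Cdh1 was high in both kinds of vesicle, intermediate in the 3 vacuolated groups and low in normal cells. It had 260, 220 and 191 CPM in the serum-free vesicles and 190, 206 and 260 CPM in the serum vesicles. It had 25.6, 34.1 and 33.8 CPM in sorted vacuolated cells, 24.4, 20.7 and 29.2 CPM in CHIR-vacuolated cells and 28.3, 27.7 and 28.9 CPM in BCS-vacuolated cells, against 11.3, 4.03 and 8.63 CPM in normal cells. Every vesicle library lay above every vacuolated one, and every vacuolated library above every normal one, while the 3 vacuolated groups overlapped, as did the vesicle groups. Against normal cells Cdh1 was 27.7-fold higher in serum-free vesicles (log2 4.79, SE 0.23, adjusted p = 2.23e-13) and 27.1-fold higher in serum vesicles (log2 4.76, SE 0.23, adjusted p = 2.77e-13). It was 3.87-fold higher in sorted vacuolated cells (adjusted p = 2.81e-06), 3.08-fold higher in CHIR-vacuolated cells (adjusted p = 0.000102) and 3.51-fold higher in BCS-vacuolated cells (adjusted p = 1.17e-05). These comparisons share the same 3 normal libraries. Serum vesicles, set directly against CHIR-vacuolated cells, had 8.78-fold more Cdh1 (log2 3.13, SE 0.20, adjusted p = 5.06e-11). Between serum-free and serum vesicles no difference was called, with a log2 fold change of 0.03 and a 95% interval from -0.35 to 0.41.

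Epcam, a cell surface adhesion molecule of epithelia, was highest in vesicles, and of the vacuolated groups the BCS one was called. It had 282, 302 and 290 CPM in serum-free vesicles, 205, 146 and 219 CPM in serum vesicles, 49.5, 41.9 and 53.0 CPM in sorted vacuolated cells and 37.3, 39.8 and 40.3 CPM in CHIR-vacuolated cells. BCS-vacuolated cells had 87.2, 51.9 and 93.2 CPM, and normal cells had 31.9, 40.9 and 35.3 CPM. The second BCS-vacuolated library lay below the other two of its group but above every normal one. Against normal cells Epcam was 8.09-fold higher in serum-free vesicles (adjusted p = 2.52e-12), 5.27-fold higher in serum vesicles (adjusted p = 1.03e-10) and 2.14-fold higher in BCS-vacuolated cells (log2 1.10, SE 0.18, adjusted p = 0.000132). Without the second BCS-vacuolated library the last log2 fold change was 1.33. In sorted vacuolated cells the log2 fold change was 0.42 (adjusted p = 0.0864), which passed the threshold without the low-count filter (adjusted p = 0.0316), with passage in the model (adjusted p = 0.0496) and in a fit of these 2 groups by themselves (adjusted p = 0.0132). In CHIR-vacuolated cells it was 0.12, with an interval from -0.26 to 0.50.

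The direct comparisons for Epcam gave differences inside both pairs of treatments. Epcam was 1.54-fold higher in serum-free than in serum vesicles (log2 0.62, SE 0.17, adjusted p = 0.00916), with all 3 serum-free libraries above all 3 serum ones. It was 1.97-fold lower in CHIR-vacuolated than in BCS-vacuolated cells (log2 -0.98, SE 0.18, adjusted p = 0.000631), and again the libraries did not overlap.

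Grhl2, a Grainyhead-like transcription factor known to activate junction genes including Cdh1 in mouse epithelia, was called in vesicles alone. It had 30.5, 21.4 and 13.6 CPM in serum-free vesicles and 15.5, 12.7 and 19.4 CPM in serum vesicles, against 0.538, 1.92 and 1.97 CPM in normal cells. Sorted vacuolated cells had 2.07, 3.02 and 3.08 CPM, CHIR-vacuolated cells 2.38, 3.28 and 1.91 CPM, and BCS-vacuolated cells 1.36, 0.991 and 1.04 CPM. All vesicle libraries lay above all others. Against normal cells Grhl2 was 14.4-fold higher in serum-free vesicles (log2 3.85, SE 0.36, adjusted p = 2.27e-09) and 10.5-fold higher in serum vesicles (log2 3.39, SE 0.37, adjusted p = 2.18e-08). No vacuolated group passed, with log2 fold changes of 0.88 in sorted, 0.74 in CHIR-vacuolated and -0.42 in BCS-vacuolated cells (adjusted p = 0.119, 0.354 and 0.581), so Cdh1 was called in those groups while Grhl2 was not. The intervals of these Grhl2 values were wide, from 0.03 to 1.72 in sorted, from -0.16 to 1.63 in CHIR-vacuolated and from -1.42 to 0.58 in BCS-vacuolated cells.

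Esrp1, which promotes epithelial splice forms, was called in the serum-free vesicles and in no other group against normal cells. It had 55.0, 63.5 and 51.7 CPM in serum-free vesicles and 31.8, 28.0 and 29.0 CPM in serum vesicles, against 35.9, 23.4 and 28.5 CPM in normal cells. The 3 vacuolated groups ranged from 26.6 to 35.1 CPM. Serum-free vesicles thus lay above every other library. Esrp1 was 1.94-fold higher in serum-free vesicles than in normal cells (log2 0.95, SE 0.15, adjusted p = 5.74e-06) and 1.92-fold higher than in serum vesicles (log2 0.94, SE 0.15, adjusted p = 7.35e-05). Between serum vesicles and normal cells the log2 fold change was 0.02, with an interval from -0.30 to 0.33.

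**Figure D1:**
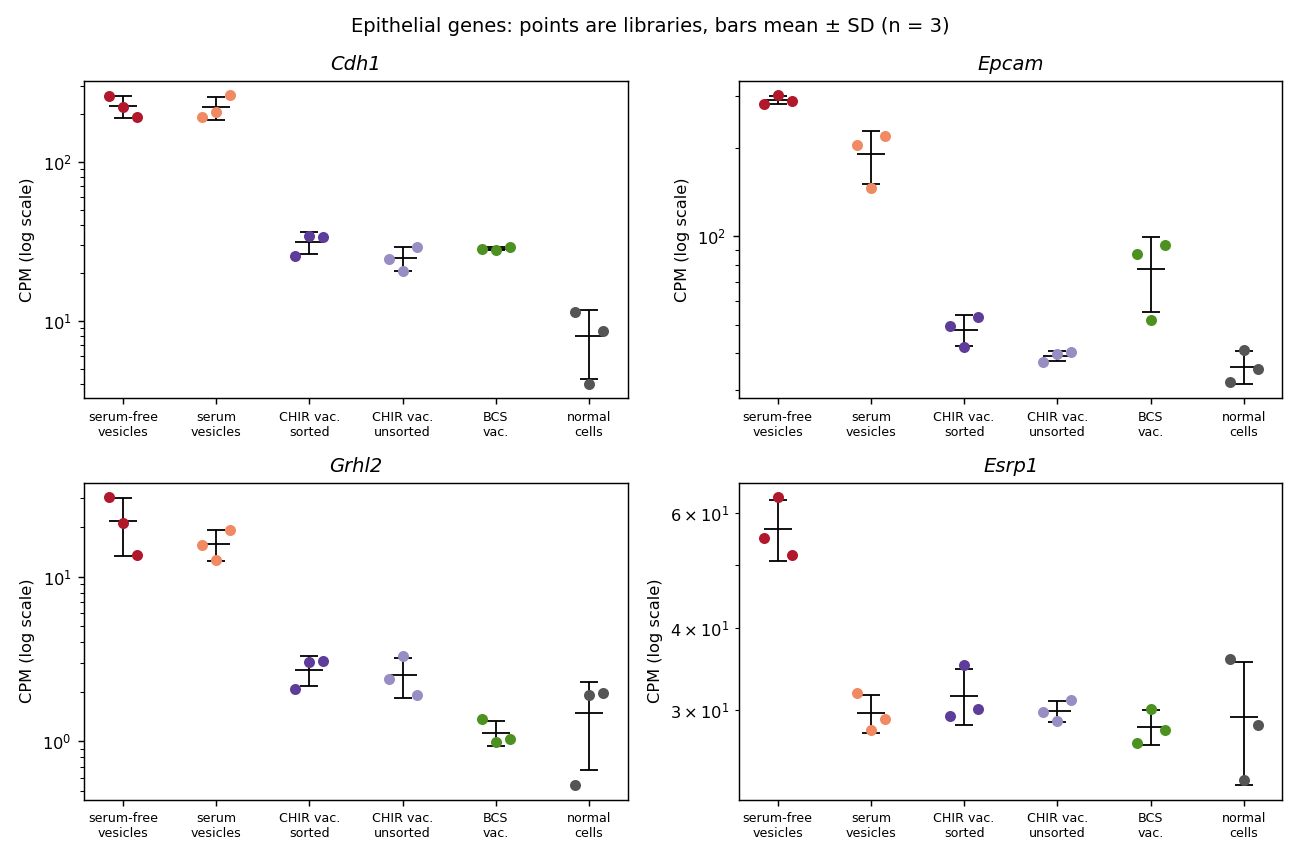
Level of the epithelial members Cdh1, Epcam, Grhl2 and Esrp1 in each of the 18 libraries, in CPM on a log axis, by group. Points are libraries and bars are the group mean ± SD (n = 3). Cdh1, Epcam and Grhl2 are high in both vesicle groups, and Esrp1 is highest in the serum-free vesicles, at 51.7 to 63.5 CPM.

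Vim ran the other way. It had 12.1, 19.2 and 27.02 CPM in serum-free vesicles and 4.26, 5.01 and 3.23 CPM in serum vesicles. It had 53.0, 46.5 and 56.9 CPM in sorted vacuolated cells, 39.3, 44.7 and 58.9 CPM in CHIR-vacuolated cells and 73.8, 66.5 and 65.1 CPM in BCS-vacuolated cells, against 121, 94.4 and 109 CPM in normal cells. Every normal library lay above all others, and every serum vesicle library below all others. Vim was 5.49-fold lower in serum-free vesicles than in normal cells (log2 -2.46, SE 0.20, adjusted p = 4.24e-10) and 25.3-fold lower in serum vesicles (log2 -4.66, SE 0.24, adjusted p = 2.67e-13). It was 2.08-fold lower in sorted vacuolated cells (adjusted p = 0.000222) and 2.27-fold lower in CHIR-vacuolated cells (adjusted p = 0.000215). In BCS-vacuolated cells it was 1.58-fold lower (log2 -0.66, SE 0.19, adjusted p = 0.0133), a call lost without the first normal library (adjusted p = 0.0672) or the third BCS-vacuolated one (adjusted p = 0.0534).

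The vesicle groups, close in Cdh1, were apart in Vim. Serum-free vesicles had 4.61-fold more Vim than serum vesicles (log2 2.21, SE 0.25, adjusted p = 3.32e-06), and serum vesicles had 11.1-fold less than CHIR-vacuolated cells (log2 -3.48, SE 0.25, adjusted p = 6.77e-11). Between CHIR-vacuolated and BCS-vacuolated cells the log2 fold change was -0.52 (adjusted p = 0.0689). That difference passed under DESeq2 (adjusted p = 0.0488), without the low-count filter (adjusted p = 0.0155), with passage in the model (adjusted p = 0.0295), in a fit of these 2 groups by themselves (adjusted p = 0.0189) and without the third CHIR-vacuolated library (adjusted p = 0.0329).

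The ratio of Cdh1 to Vim counts within a library needs no scaling between libraries. It is not corrected for the lengths of the genes, so it compares libraries and not the genes. The ratio was 21.5, 11.5 and 7.08 in serum-free vesicles and 44.5, 41.2 and 80.7 in serum vesicles. It was 0.483, 0.733 and 0.594 in sorted vacuolated cells, 0.621, 0.463 and 0.497 in CHIR-vacuolated cells and 0.384, 0.417 and 0.443 in BCS-vacuolated cells, against 0.0931, 0.0427 and 0.0789 in normal cells. Serum vesicles, serum-free vesicles, vacuolated cells and normal cells thus took separate ranges, in that order, and the sorted and unsorted CHIR99021 groups overlapped.

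**Figure D2:**
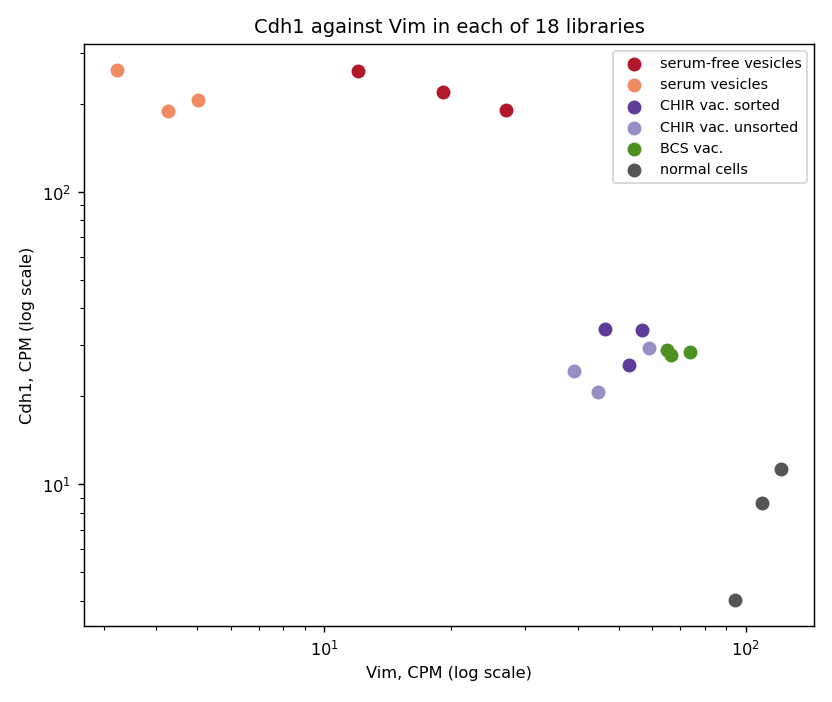
Cdh1 against Vim in CPM, both on log axes, 1 point for each of the 18 libraries, coloured by group. Vesicle libraries lie at high Cdh1 and low Vim (191 to 260 and 3.23 to 27.02 CPM), normal libraries at low Cdh1 and high Vim, and vacuolated libraries between them.

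Snai1, a zinc finger repressor of Cdh1, did not mirror it. Snai1 had 3.20, 2.79 and 3.84 CPM in serum-free vesicles, 3.35, 3.20 and 6.92 CPM in serum vesicles, 7.61, 13.6 and 11.4 CPM in sorted vacuolated cells and 3.22, 4.48 and 4.51 CPM in CHIR-vacuolated cells. BCS-vacuolated cells had 13.9, 6.83 and 10.7 CPM and normal cells 4.13, 5.76 and 3.33 CPM. Sorted and BCS-vacuolated libraries lay above all normal ones. Snai1 was 2.49-fold higher in sorted vacuolated than in normal cells (log2 1.32, SE 0.32, adjusted p = 0.00355) and 2.67-fold higher than in unsorted CHIR-vacuolated cells (log2 1.42, SE 0.32, adjusted p = 0.00412). Mitochondrially encoded genes took 6.76 to 8.91% of the counts outside the 2 most abundant genes in sorted and 2.88 to 4.08% in unsorted CHIR-vacuolated cells, and their part in the Snai1 difference was not tested.

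In BCS-vacuolated cells Snai1 was 2.37-fold higher than in normal cells (log2 1.25, SE 0.32, adjusted p = 0.00791). This call was lost without the third normal library (adjusted p = 0.0536) or the first BCS-vacuolated one (adjusted p = 0.0661), and without the second BCS-vacuolated library the log2 fold change was 1.49. Snai1 was 2.55-fold lower in CHIR-vacuolated than in BCS-vacuolated cells (log2 -1.35, SE 0.32, adjusted p = 0.00607), also lost without the first BCS-vacuolated library (adjusted p = 0.0620). In BCS-vacuolated and sorted cells Snai1 and Cdh1 were thus both higher than in normal cells. In vesicles no change of Snai1 was called, with log2 fold changes against normal cells of -0.41 in serum-free vesicles (interval -1.14 to 0.33) and -0.02 in serum vesicles (interval -0.74 to 0.71).

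Zeb1, a zinc finger repressor of Cdh1 and Epcam, was measured with few counts. It had 0, 1 and 1 counts in serum-free vesicles and 15, 17 and 5 in serum vesicles. It had 17, 25 and 18 counts in sorted vacuolated, 5, 8 and 16 in CHIR-vacuolated, 6, 9 and 5 in BCS-vacuolated and 5, 8 and 8 in normal cells. Serum-free vesicles stood below every other library. Serum-free vesicles had 2 counts against 21 in normal cells. Scaled by library size, the level in normal cells was 13.4 times that in serum-free vesicles. Its 95% interval, from 3.27 to 118, covers counting error only. In the quasi-likelihood test Zeb1 was 11.5-fold lower in serum-free vesicles (log2 -3.52, adjusted p = 0.000671). By counts, the level in serum vesicles was 22.6 times that in serum-free vesicles, with an interval from 5.84 to 194. The quasi-likelihood test put that difference at 18.8-fold (log2 -4.23, adjusted p = 0.0003). Serum vesicles were not called against normal cells (log2 0.71, interval -0.37 to 1.78), and their Cdh1 range overlapped that of the serum-free vesicles.

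The 12 fibroblast and feeder markers summed to 2.19 to 4.71 CPM there, 5.78 to 17.0 CPM in serum vesicles and 3.18 to 16.1 CPM in normal cells. The collagen genes Col3a1 and Col5a1, 2 of the 4 markers tested, were lower in serum-free than in serum vesicles (adjusted p = 0.0294 and 0.0331). Of all genes 11.5% were called lower in that comparison. Col3a1 and Col5a1 had 0.360 ± 0.231 and 0.863 ± 0.637 CPM in serum-free vesicles against 2.09 ± 1.62 and 2.85 ± 2.18 CPM in serum vesicles (SD, n = 3 each). On average Col1a1 had 1.08 and 5.71 CPM and Fbln2 0.344 and 0.358 CPM in serum-free and serum vesicles. Fbln2 averaged 0.285 CPM in normal, 2.69 CPM in CHIR-vacuolated and 4.65 CPM in sorted vacuolated cells. Of the listed markers, Dcn and Postn had 0 counts in all 18 libraries, while Col1a1 had 394, Col5a1 308 and Fbln2 238 counts over all of them. The part of such cells in the Zeb1 and Vim results was not tested.

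Cdh2, Zeb2 and Snai2 were close to absent. Cdh2 had 8 counts in serum-free vesicles, 5 in serum vesicles, 35 in sorted vacuolated, 18 in CHIR-vacuolated, 14 in BCS-vacuolated and 7 in normal cells, summed over 3 libraries each. Its means of 0.319 to 1.07 CPM were far below those of Cdh1 in every group, though the genes' lengths were not corrected for. Zeb2 had 24 counts in all 18 libraries. Snai2 had 1 count, in sorted vacuolated cells. In normal cells 0 counts of Snai2 allow a level of up to 0.173 CPM, taking 3 counts over the group as the limit. Without the filter none of the 3 passed in any comparison, and the smallest adjusted p was 0.206 for Cdh2 in serum vesicles against CHIR-vacuolated cells. By counts alone, Cdh2 in serum vesicles was 0.311 times its level in CHIR-vacuolated cells (95% interval 0.0902 to 0.869), where the libraries of the 2 groups did not overlap. In sorted vacuolated cells Cdh2 was 2.87 times its level in normal cells (1.26 to 7.66). There the libraries of the groups overlapped, and 22 of the 35 counts came from the third sorted library. In CHIR-vacuolated cells Cdh2 was 2.21 times its level in normal cells (0.880 to 6.26). These intervals cover counting error only. At this depth no Cdh2 difference passed the test across libraries.

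**Figure D3:**
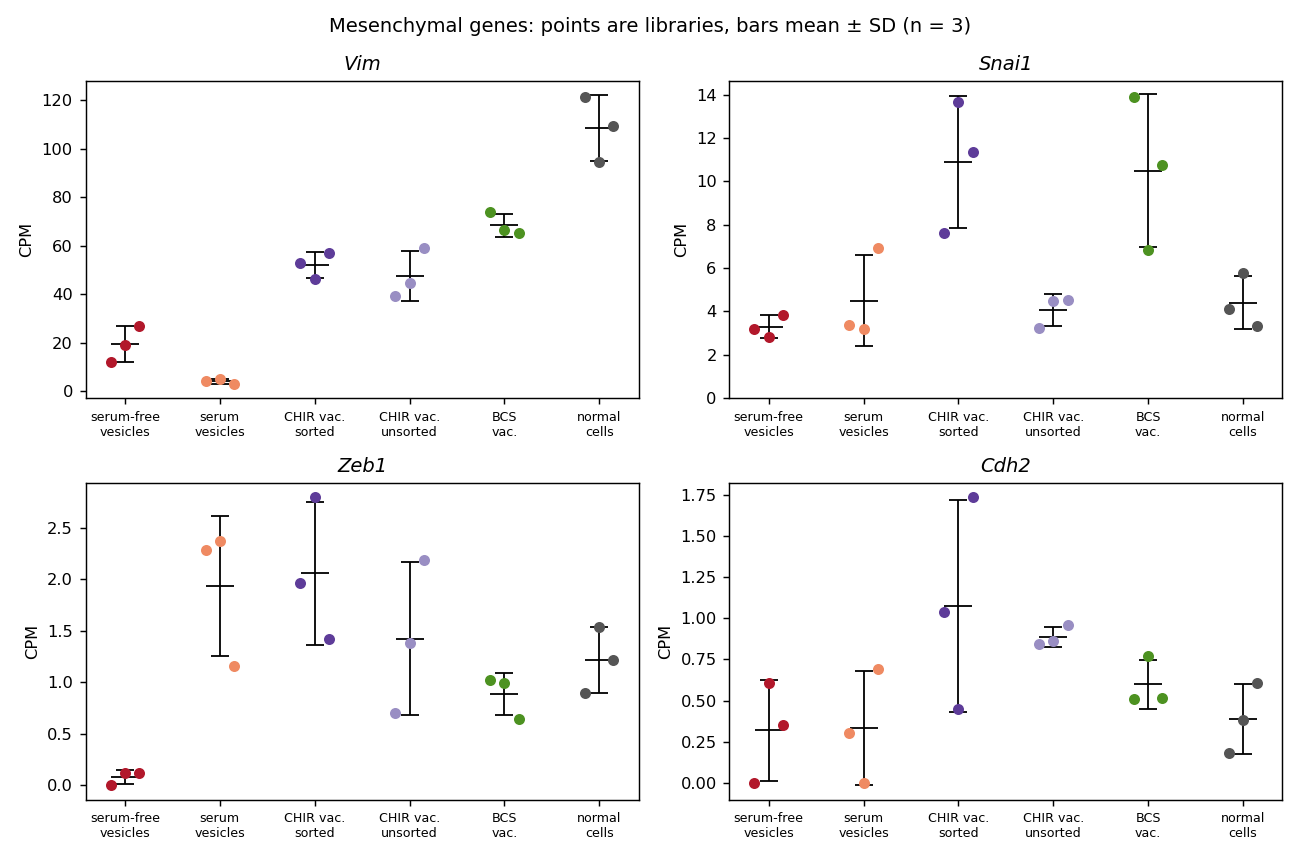
Level of the mesenchymal members and repressors Vim, Snai1, Zeb1 and Cdh2 in each of the 18 libraries, in CPM, by group. Points are libraries and bars are the group mean ± SD (n = 3). Vim is highest in normal cells at 94.4 to 121 CPM, Snai1 is high in sorted and BCS-vacuolated cells, and Zeb1 is near 0 in serum-free vesicles.

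Counts of called members are set here beside the share of all 11503 genes called. In serum-free vesicles against normal cells 4 of the 7 tested members rose (Cdh1, Epcam, Grhl2, Esrp1) and 2 fell (Vim, Zeb1), where 57.7% of all genes were called, 30.2% higher and 27.5% lower. In serum vesicles 3 rose (Cdh1, Epcam, Grhl2) and Vim fell, with 60.4% of all genes called, 31.7% higher and 28.8% lower, so the share of 4 in 7 lay near the background. In sorted vacuolated cells Cdh1 and Snai1 rose and Vim fell, with 25.9% called, 14.4% higher and 11.5% lower. In CHIR-vacuolated cells Cdh1 rose and Vim fell, with 7.62% called, 4.49% higher and 3.13% lower. In BCS-vacuolated cells Cdh1, Epcam and Snai1 rose and Vim fell, with 20.7% called, 11.2% higher and 9.51% lower.

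Among the direct comparisons, serum vesicles against CHIR-vacuolated cells called Cdh1, Epcam and Grhl2 higher and Vim lower, with 58% of all genes called, 30.3% higher and 27.6% lower. Serum-free against serum vesicles called Epcam, Vim and Esrp1 higher and Zeb1 lower, with 24.4% called, 12.9% higher and 11.5% lower. Sorted against unsorted CHIR-vacuolated cells called Snai1 higher, with 11.7% called, 6.69% higher and 5.05% lower. CHIR-vacuolated against BCS-vacuolated cells called Epcam and Snai1 lower, with 13.2% called, 5.83% higher and 7.4% lower. Members are 10 chosen genes and the shares cover all genes, so no test of their excess was made.

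**Figure D4:**
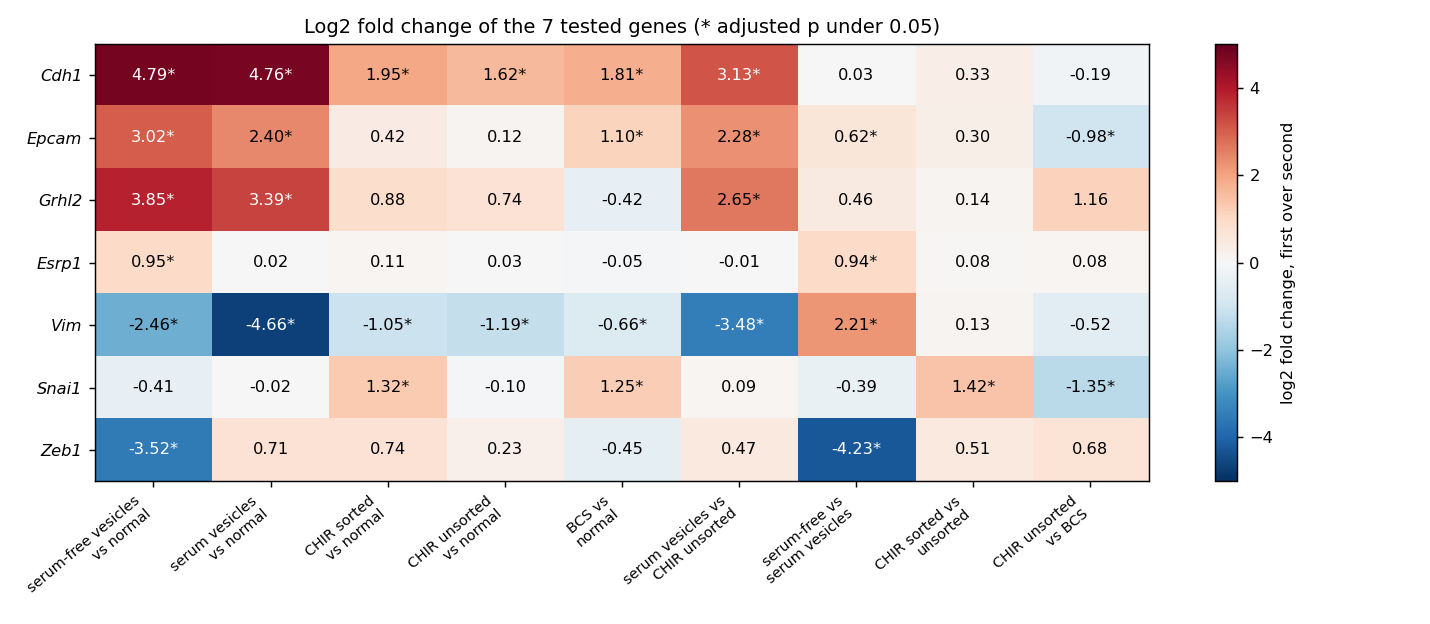
Log2 fold changes (first group over second) of the 7 tested members in the 9 comparisons, with an asterisk where the adjusted p was under 0.05. Cdh1 is positive and Vim negative in all 5 comparisons with normal cells, while Snai1 is called in the sorted and BCS-vacuolated cells and Esrp1 in the serum-free vesicles.

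The wider epithelial genes were read from lists of the pathway. Of 26 epithelial junction and trafficking genes 25 were tested. Against normal cells 22 rose and none fell in serum-free vesicles, 21 rose and 1 fell in serum vesicles, 14 rose and 1 fell in sorted vacuolated cells, 7 rose and none fell in CHIR-vacuolated cells, and 12 rose and none fell in BCS-vacuolated cells. Over all genes, the shares called higher were 30.2%, 31.7%, 14.4%, 4.49% and 11.2% in that order of groups. The median log2 fold changes of the list were 1.86, 2.48, 0.64, 0.24 and 1.28 in that order of groups, against medians over all genes of 0.03, 0.06, 0.01, 0.00 and 0.00. The tight junction claudin Cldn6 had 204 ± 37.5 CPM in serum-free vesicles, 183 ± 28.9 CPM in serum vesicles, 89.7 ± 13.6 CPM in sorted vacuolated, 70.7 ± 1.44 CPM in CHIR-vacuolated and 86.7 ± 8.13 CPM in BCS-vacuolated cells, against 15.4 ± 2.86 CPM in normal cells (SD, n = 3 each). It passed in all 5 comparisons with normal cells, where the largest adjusted p was 1.22e-08 in CHIR-vacuolated cells. Ocln, the tight junction protein occludin, had 207 ± 24.3 CPM in serum-free vesicles, 145 ± 6.86 CPM in serum vesicles and 74.3 ± 14.0 CPM in BCS-vacuolated cells, against 25.9 ± 0.890 CPM in normal cells. In CHIR-vacuolated cells it had 33.6 ± 3.42 CPM (log2 0.37, adjusted p = 0.132), and the direct difference of Ocln between CHIR-vacuolated and BCS-vacuolated cells was called (log2 -1.14, adjusted p = 6.84e-06).

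Of 14 other cadherins and catenins 7 were tested, and 4 rose and 1 fell in each vesicle group. That is 5 of 7 called, where 57.7% of all genes were called in serum-free vesicles, 30.2% higher and 27.5% lower. In serum vesicles 60.4% of all genes were called, 31.7% higher and 28.8% lower. Only 7 genes of the list were tested, and no test of an excess was made. The list's median log2 fold change was 1.44 in serum-free and 1.29 in serum vesicles, against 0.03 and 0.06 over all genes. Those that rose were Cdh13 and 3 catenins, which tie cadherins to actin or hold them at the surface, and Cdh5, the endothelial cadherin, fell. In sorted vacuolated cells 3 of the list rose, in CHIR-vacuolated cells 1 and in BCS-vacuolated cells 3, and none fell. The shares of all genes called higher there were 14.4%, 4.49% and 11.2%. Ctnna1 (alpha-catenin) had 83.2 ± 3.74 CPM in serum-free vesicles and 99.1 ± 11.1 CPM in serum vesicles, against 34.8 ± 3.33 CPM in normal cells (adjusted p = 5.13e-09 and 2.15e-10). Ctnnd1 (p120-catenin) had 332 ± 46.5 CPM in serum-free vesicles and 265 ± 12.04 CPM in serum vesicles, against 122 ± 5.13 CPM in normal cells (adjusted p = 3.28e-10 and 2.00e-08). Jup (plakoglobin) had 116 ± 17.8 CPM in serum-free vesicles, 82.0 ± 17.3 CPM in serum vesicles and 85.9 ± 9.99 CPM in BCS-vacuolated cells, against 25.9 ± 5.62 CPM in normal cells. Ctnnb1 (beta-catenin), named after its values were seen, was not called in any comparison with normal cells, with log2 fold changes from -0.23 in BCS-vacuolated cells to 0.06 in CHIR-vacuolated cells. Cdh13, a cadherin without a cytoplasmic tail, had 6.30 ± 4.51 CPM in serum vesicles and 1.70 ± 0.646 CPM in serum-free vesicles, against 0.161 ± 0.152 CPM in normal cells (adjusted p = 7.84e-06 and 0.00335).

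Of 14 other epithelial regulators 9 were tested, and 7 rose and 1 fell in each vesicle group against normal cells, while none was called between the vesicle groups. Of all genes, 57.7% were called in serum-free vesicles, 60.4% in serum vesicles and 24.4% between them. In sorted vacuolated cells 5 of these regulators rose, in CHIR-vacuolated cells 1 and in BCS-vacuolated cells 2, and none fell. The shares of all genes called higher there were 14.4%, 4.49% and 11.2%. The list's median log2 fold change was 1.95 in serum-free and 1.96 in serum vesicles, against 0.03 and 0.06 over all genes, and -0.08 between the vesicle groups, against 0.02. Esrp2, the paralog of Esrp1, had 68.7 ± 3.23 CPM in serum-free vesicles and 57.0 ± 11.3 CPM in serum vesicles, against 14.6 ± 2.25 CPM in normal cells (adjusted p = 1.92e-10 and 1.87e-09). Esrp2 was thus called in both vesicle groups and Esrp1 in the serum-free one. Rbm47, an RNA-binding protein, had 79.6 ± 5.19 and 94.9 ± 14.1 CPM in serum-free and serum vesicles, against 20.6 ± 1.97 CPM in normal cells. The regulator that fell was Klf5, with 50.4 ± 1.58 CPM in serum-free and 43.9 ± 10.9 CPM in serum vesicles, against 90.6 ± 9.87 CPM in normal cells (adjusted p = 6.46e-05 and 3.98e-06).

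Of 17 mesenchymal structural genes other than Vim 12 were tested. Against normal cells 3 rose and 3 fell in serum-free vesicles, 6 rose and 1 fell in serum vesicles, and 5 rose and none fell in BCS-vacuolated and in sorted cells. With 57.7% of all genes called in serum-free and 60.4% in serum vesicles, the counts of 6 and 7 in 12 did not exceed the background in either. In BCS-vacuolated cells 11.2% and in sorted cells 14.4% of all genes were called higher. The list's median log2 fold change was -0.20 in serum-free and 0.34 in serum vesicles. S100a6, a calcium-binding protein, had 162 ± 15.3 CPM in serum-free and 125 ± 16.7 CPM in serum vesicles, against 70.6 ± 17.6 CPM in normal cells (adjusted p = 5.66e-06 and 0.00041). Cd44, a hyaluronan receptor, had 43.6 ± 20.0 CPM in serum-free and 18.8 ± 3.56 CPM in serum vesicles, against 9.12 ± 1.84 CPM in normal cells (adjusted p = 1.55e-05 and 0.0141). Itga5, the fibronectin receptor subunit, went the other way, at 1.45 ± 0.291 CPM in serum-free vesicles against 15.4 ± 2.45 CPM in normal cells. Serum vesicles had 11.5 ± 1.71 CPM of Itga5, with an adjusted p of 9.73e-08 between the vesicle groups. BCS-vacuolated cells had 47.0 ± 8.72 CPM of Itga5, against 15.4 ± 2.45 CPM in normal cells (adjusted p = 7.00e-07). Loxl2, a matrix cross-linking oxidase, had 43.5 ± 7.72 CPM in BCS-vacuolated and 32.4 ± 3.31 CPM in sorted cells, against 10.4 ± 0.429 CPM in normal cells.

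Among 16 other inducers of the transition 8 were tested, and 4 rose and none fell in serum-free vesicles, while 3 rose and 2 fell in serum vesicles. These counts, 4 and 5 in 8, lay near the 57.7% and 60.4% of all genes called. The list's median log2 fold change was 0.67 in serum-free and 0.40 in serum vesicles. Tcf4, an E-box binding factor, had 28.2 ± 4.67 CPM in serum-free and 23.7 ± 7.73 CPM in serum vesicles, against 3.25 ± 0.522 CPM in normal cells. Sox9 had 14.3 ± 2.20 CPM in serum-free and 42.9 ± 11.9 CPM in serum vesicles, against 7.91 ± 0.534 CPM in normal cells (adjusted p = 0.0137 and 9.96e-08). The inducers that fell in serum vesicles were Foxc1 (adjusted p = 0.0190) and the receptor gene Tgfbr1 (adjusted p = 0.0119). Twist2 had 0 counts in all 18 libraries.

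The labelled cell type was read beside these genes. All 10 extraembryonic endoderm markers were tested and summed to 2482 to 2732 CPM in serum-free vesicles and 1904 to 2105 CPM in serum vesicles, against 3587 to 3695 CPM in normal cells. Of them 2 rose and 6 fell in serum-free vesicles, and 1 rose and 7 fell in serum vesicles. Of all genes, 30.2% were called higher and 27.5% lower in serum-free vesicles, and 31.7% higher and 28.8% lower in serum vesicles. The marker that rose in both was Foxa2, a forkhead factor of endoderm, with 44.6 ± 2.82 CPM in serum-free and 47.0 ± 5.29 CPM in serum vesicles, against 24.3 ± 2.71 CPM in normal cells (adjusted p = 6.01e-05 and 1.82e-05). Pdgfra, a receptor of primitive endoderm, rose in serum-free vesicles, to 293 ± 61.2 CPM against 197 ± 7.39 CPM in normal cells (adjusted p = 0.00412). Pou5f1, which rat XENP cells are known to express, had 0.746 ± 0.824 CPM in serum-free and 1.25 ± 0.482 CPM in serum vesicles, against 118 ± 15.7 CPM in normal cells (adjusted p = 7.50e-15 and 3.34e-14). Gata6, an endoderm factor, had 15.8 ± 2.84 and 13.8 ± 3.33 CPM in serum-free and serum vesicles, against 80.1 ± 3.95 CPM in normal cells. Cdx2, a factor of trophoblast and hindgut, had 22.2 ± 4.44 CPM in serum-free and 24.96 ± 5.79 CPM in serum vesicles, against 0 counts in normal cells. Eomes, another trophoblast factor, fell to 0.969 CPM in serum-free and 0.854 CPM in serum vesicles on average, against 8.25 CPM in normal cells (adjusted p = 8.03e-08 and 5.34e-08). All 7 trophoblast markers, Cdx2 included, summed to 19.1 to 28.4 CPM in serum-free and 22.1 to 32.6 CPM in serum vesicles, against 7.27 to 9.87 CPM in normal cells, and Hand1 had 0 counts in all 18 libraries. The 6 epiblast and pluripotency markers in the files summed to 2.59 CPM or less in every library. Mitochondrially encoded genes took 7.11 to 9.43% of the remaining counts in serum-free and 7.91 to 9.31% in serum vesicles, against 3.13 to 3.38% in normal cells. The part of these shifts in the vesicle values of Cdh1, Epcam, Grhl2 and Vim was not tested.

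The genes whose log2 CPM ran most like a member's were picked by Pearson correlation over the 18 libraries from the 6950 genes that averaged a log2 CPM of 3 or more. The libraries fall into groups, so these values describe likeness of group pattern. Cdh1 was most like Add3 (0.985), Pigt (0.982) and Kit (0.976). Epcam was most like Ocln (0.978), Prss8 (0.976) and Slc35f5 (0.968). Grhl2 was most like Tada3 (0.964), Osbpl6 (0.954) and Tmprss2 (0.951), and Esrp1 most like Naxe at a lower 0.906. Vim was most like Pdia4 (0.974), Fgf10 (0.973) and Sec61a1 (0.969). Snai1 was most like Slc12a9 (0.902) and Col4a1 (0.899), and Zeb1 most like Tor2a (0.864).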

How the data were processed

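The authors deposited raw counts per gene and library: unstranded, and on either strand. The submitters' processing notes name bcl2fastq, Trimmomatic 0.38, STAR 2.6.1 and build rn6. Per the labels' protocols, total RNA was depleted of ribosomal RNA, made into directional libraries and sequenced as paired reads. The counts of the strand that took nearly all were used here, and the other strand held 1.70 to 2.85%. Genes carry symbols only, with no positions.

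Tests were run with edgeR 4.0.16 in R 4.3.3, beside limma 3.58.1. The default filter by group (minimum count 10) left 11503 genes, scaled by TMM. A quasi-likelihood model with 1 mean per group was fitted robustly to all 18 libraries (12 residual degrees of freedom, common biological coefficient of variation 16.1%). The 9 comparisons were each adjusted by Benjamini-Hochberg over all genes tested, with a threshold of 0.05. SEs are the log2 fold change over the root of F. Promoters came from RefSeq, build GRCr8. The code was tested on simulated data. Changes were planted there only in genes above the normal-cell levels of Snai1, Grhl2 and Zeb1, so changes at such low levels were not covered.

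The members, gene lists and tests were chosen with earlier results of these data known. All 10 members are named, and from each of 10 lists at most the 3 genes with the smallest adjusted p in each direction of a comparison, beside genes at 0 and those stated otherwise. Some list genes that this rule names are left out of the text. Genes alike to a member are the 3 with the highest Pearson correlation. Twist1, Prrx1 and Foxa2 stand in more than 1 list. Pkp2, Zfp42 and T were not found under their symbols. Alternatives were DESeq2 1.42.0, other size factors, no filter, unstranded counts, the 2 most abundant genes left out, passage as a covariate, a replicate block, each pair of groups fitted alone and each library left out in turn. No pair of replicate libraries agreed within sampling noise.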

Additional observations from a re-analysis of the deposited data

Results flagged for a closer look

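In 4 genes the vesicle groups, set against the same normal cells, differed from each other in the direct test. With serum-free over serum vesicles, the log2 differences were 0.62 for Epcam, 2.21 for Vim, 0.94 for Esrp1 and -4.23 for Zeb1, where the Zeb1 value rests on 2 counts in serum-free vesicles and is not exact. Vim was below normal cells in both vesicle groups, by different amounts.

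Snai1 differed between sorted and unsorted CHIR-vacuolated cells, with a log2 difference of 1.42. With CHIR-vacuolated over BCS-vacuolated cells, the log2 differences were -0.98 for Epcam and -1.35 for Snai1. Groups of 3 libraries were too small for a test of single libraries that lie apart.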

How the results depend on the processing

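Over the 7 tested members, 9 comparisons and all alternatives, 834 log2 fold changes kept their direction and their side of the threshold, 8 passed it newly, 5 fell below it and 28 changed sign. None of those that changed sign had passed. In serum vesicles against normal cells, Esrp1 was -0.0124 without the filter, -0.00724 with unstranded counts, -0.00971 with passage as a covariate and -0.000351 with the groups fitted alone, and Snai1 was 0.0888 with passage as a covariate. Cdh1 in serum-free against serum vesicles was -0.000852 with the groups fitted alone.

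With 1 library left out, Esrp1 ran from -0.143 to 0.178 in serum vesicles, -0.0341 to 0.276 in sorted, -0.104 to 0.200 in CHIR-vacuolated and -0.167 to 0.120 in BCS-vacuolated cells, against normal cells. It ran from -0.0749 to 0.0245 in serum vesicles against CHIR-vacuolated cells and from -0.00706 to 0.123 in sorted against unsorted ones. Snai1 ran from -0.415 to 0.189 in serum vesicles and -0.276 to 0.130 in CHIR-vacuolated cells against normal cells, from -0.316 to 0.279 in serum vesicles against CHIR-vacuolated cells and from -0.583 to 0.00935 in serum-free against serum vesicles. Zeb1 ran from -0.240 to 0.568 in CHIR-vacuolated against normal cells, Grhl2 from -0.0301 to 0.353 in sorted against unsorted cells and Cdh1 from -0.0817 to 0.176 in serum-free against serum vesicles.

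Members called with 1 library left out were 1 to 3 for CHIR-vacuolated against BCS-vacuolated cells and 3 to 4 for BCS-vacuolated against normal cells, and as before elsewhere. All genes called were then 504 to 638 for CHIR-vacuolated, 1275 to 2606 for BCS-vacuolated and 1982 to 2471 for sorted against normal cells. They were 690 to 954 for sorted against unsorted cells, 748 to 1947 for CHIR-vacuolated against BCS-vacuolated cells and 1725 to 3004 for serum-free against serum vesicles. Fits of 2 groups alone called 1856 genes for CHIR-vacuolated against normal cells (876 with all libraries), 1223 for serum-free against serum vesicles (2806) and 2576 for sorted against unsorted cells (1350). The cause was not tested. Such fits test fewer genes, and Zeb1 was filtered out there in both comparisons that had called it, so it has no value from them.

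The replicate block changed no member's call, and called 832 genes for CHIR-vacuolated against normal cells. Deviations of same-numbered libraries correlated at -0.149 to 0.0951, so the numbers were not taken as a pairing. Some same-numbered libraries shared a passage. Libraries 1 and 2 of both vesicle groups were at passages 32 and 35, and libraries 1 and 3 of normal and CHIR-vacuolated cells at 37 and 51. The labels do not say what a replicate number marks. No alternative moved the median of all genes by more than 0.0508. Low counts limit Zeb1, Cdh2, Zeb2 and Snai2.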

Other observations

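Genes of keratins, the intermediate filaments of epithelia, rose against normal cells in groups where Vim fell. Krt8, Krt18 and Krt19 belong to the list of epithelial junction and trafficking genes, so their calls are already among its counts above. Krt8 had 898 ± 23.4 CPM in serum-free vesicles, 730 ± 139 CPM in serum vesicles, 393 ± 61.4 CPM in sorted vacuolated, 488 ± 23.3 CPM in CHIR-vacuolated and 382 ± 96.0 CPM in BCS-vacuolated cells, against 117 ± 19.4 CPM in normal cells (SD, n = 3 each). Its filament partner Krt18 had 473 ± 20.1 CPM in serum-free and 464 ± 71.6 CPM in serum vesicles, against 67.0 ± 12.04 CPM in normal cells. By edgeR's quasi-likelihood test both passed in all 5 comparisons with normal cells, where the largest adjusted p was 2.19e-07 for Krt8 and 1.60e-07 for Krt18. Krt19 had 124 ± 23.9 CPM in serum-free and 70.5 ± 24.6 CPM in serum vesicles, against 34.5 ± 4.31 CPM in normal cells (adjusted p = 4.55e-08 and 9.23e-05), and was not called in BCS-vacuolated cells (adjusted p = 0.0845). Between the vesicle groups Krt19 was higher in serum-free vesicles (adjusted p = 0.00345), as Vim was, and Krt8 and Krt18 were not called. Elf3, a transcription factor from the list of other epithelial regulators, averaged 39.9 CPM in serum-free and 33.1 CPM in serum vesicles, against 8.60 CPM in normal cells.

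Lcp1, an actin-bundling protein listed as a blood marker, had 5.24 ± 4.03 CPM in serum-free and 1.56 ± 0.600 CPM in serum vesicles, against 0.124 ± 0.107 CPM in normal cells (adjusted p = 4.43e-05 and 0.00612). The blood markers Cd53 and Laptm5 had 0 counts in all 18 libraries.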
